A study of Arabidopsis thaliana with 12 samples.

Results

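Tagged and untagged reads of the same gene were compared within the 3 libraries of poly(A) RNA that had been treated with adenosine diphosphate ribosylcyclase (ADPRC) and then enriched for tagged molecules. A gene was included when its mean all-RNA value in these 3 libraries was 20 CPM (read counts scaled to the library total) or more. This rule kept 5494 of the 22337 genes listed (24.6%), and 5440 of those kept (99.0%) were annotated as protein coding. For each gene and library, the tagged share was the percentage of the gene's reads that carried the tag, and the rest of its reads were untagged.

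NAD+ can take the place of the usual methylguanosine cap at the start of an RNA molecule, and such noncanonical caps are known from bacteria, yeast, animals and plants. In NAD tagSeq, ADPRC exchanges the nicotinamide of the NAD+ cap for a clickable group, to which a synthetic tag RNA is then joined. The tagged molecules can be captured through the tag and are read directly as RNA on a Nanopore instrument. Tagged and untagged reads of 1 gene are then counted side by side. Whether every untagged read came from an untagged molecule was not tested.

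All libraries came from Arabidopsis thaliana Col-0 seedlings, 12 days old, grown without any special treatment at 23 °C under 16 h of light and 8 h of darkness. The group described here was poly(A) RNA with ADPRC and with enrichment (replicates 1, 2 and 3). It was set beside enriched poly(A) RNA without ADPRC (3 libraries), unenriched poly(A) RNA with ADPRC (3 libraries) and without it (1 library), and enriched total RNA with ADPRC (1 library). Nothing in the labels ties the replicates to separately grown plants, so a p-value here reflects only how far the libraries spread, which may be technical. Seedlings hold many cell types, and fewer cells of a type cannot be told apart from less RNA per cell.

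The 3 libraries held 1175516, 1220519 and 1233999 reads, of which the included genes took 89.4% to 92.4%. A count of 0 reads allows up to 3 reads, or 2.43 to 2.55 CPM in these libraries, for counting error only. Transcripts of green tissue were abundant, with RBCS1A at 21987 to 26259 CPM. Of the root markers, PYK10 lay at 1228 to 1532 CPM, TIP2;3 at 67.2 to 98.1 CPM and PIP2;4 at only 12.8 to 22.7 CPM. The 3 seed storage genes, which a seedling should lack, lay at 0 to 1.70 CPM. Genes just inside the limit of 20 CPM were XK-2, AT1G34220 and AT2G42040, with 73 reads each and 4, 1 and 13 of them tagged. Just outside it were AT4G32610, NIMIN-3 and EID1, also with 73 reads each and 2, 19 and 4 of them tagged.

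Tagged reads made up 24.8%, 21.6% and 14.8% of the reads of the included genes in replicates 1, 2 and 3, a mean of 20.4% ± 5.10 (SD, n = 3). Without ADPRC the same genes had 0.133%, 0.225% and 0.218% tagged reads, a mean of 0.192% ± 0.0508 (SD, n = 3). The share was 106 times higher with ADPRC, and the ranges did not overlap. An exact permutation test, two-sided, gave p = 0.1, the smallest p that 3 libraries against 3 allow. In 4650 genes (84.6%) every share with ADPRC was above every share without it, and 4158 genes had 0 tagged reads in the 3 libraries without ADPRC. In the unenriched libraries with ADPRC, 0.613%, 0.775% and 0.574% of the reads of the included genes were tagged. Shares from the enriched libraries were measured after capture of tagged molecules and are not those of the RNA before it.

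Single genes covered a wide range of shares. The median gene had a mean share of 14.9%, the quartiles were 7.60% and 22.7%, and the 5th and 95th percentiles were 1.24% and 34.2%. The highest mean share was 74.3%. A tagged read was present in each of the 3 libraries in 4737 genes, and 121 genes had none in any of them. Replicate 3 had the lowest share in 3438 genes (62.6%), and the median share was 17.1%, 16.1% and 10.5% in replicates 1, 2 and 3. Because the library as a whole was lower in replicate 3, each gene was tested against the tagged share of its own library. The order of genes was similar between libraries, with Spearman correlations of 0.774 to 0.791 across the 5494 genes, and of 0.881 to 0.889 across the 1391 genes at 100 CPM or more. These are correlations across genes, which are not independent replicates, of libraries made in the same way.

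For the test, the log2 ratio of tagged to untagged value of a gene was taken within each library, less the same ratio of the library totals, and compared with 0 by limma with Benjamini-Hochberg adjustment over all 5494 genes. At an adjusted p under 0.05, 457 genes (8.32%) had a tagged share above that of the library and 1762 genes (32.1%) had one below it, so that 40.4% were called in either direction. The remaining 3275 genes were not called, which does not show that they had the library's share. The split between higher and lower calls depends on the reference. Abundant genes weigh most in the library total, and the median gene lay at -0.53 on the log2 scale. Centred on the median gene, 1054 genes were above and 1199 below, and with TMM factors in edgeR 1287 were above and 1597 below. Higher genes made up 20.6% of calls against the library total, 46.8% against the median gene and 44.6% with TMM factors. Both references moved the median ratio up, to -0.03 and -0.11, which favours higher calls. That each of the 457 higher calls was kept is therefore no test of them. Of the 1762 lower calls, 1199 were kept against the median gene and 1506 with TMM factors, and none turned into a higher call. The count of higher calls was 348 without replicate 1, 159 without replicate 2 and 182 without replicate 3, and the count of lower calls was 1600, 928 and 1046.

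**Figure D1:**
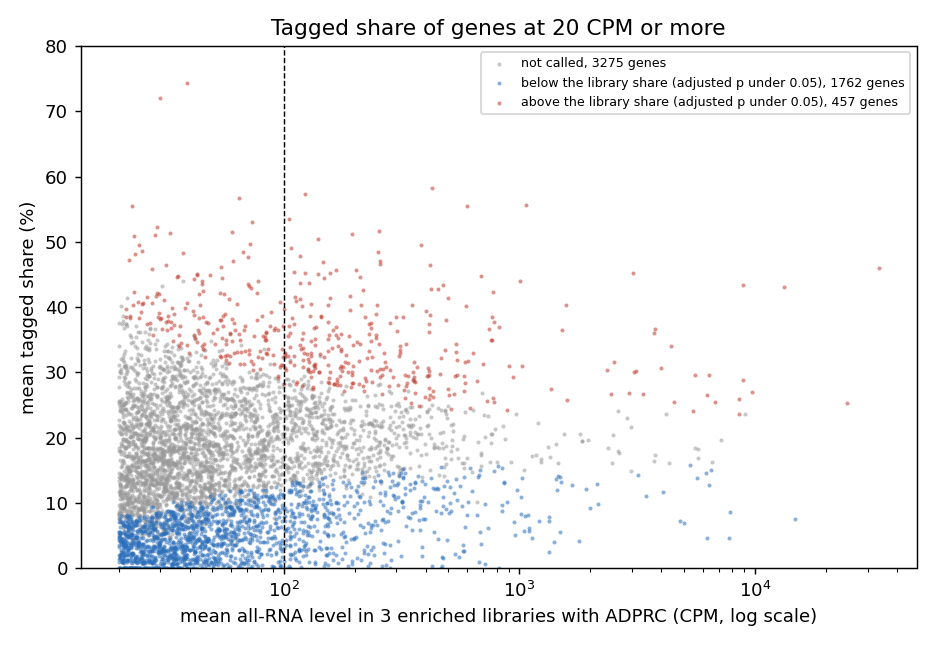
Mean tagged share in percent (vertical axis) against the mean all-RNA level in CPM (horizontal axis, log scale) for the 5494 genes, with 1 point per gene, coloured by the limma call against the library share. The dashed line marks 100 CPM. Genes above the library share (457) lie at the top, genes below it (1762) at the bottom, and the uncalled band is widest at low levels.

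Median shares were compared between classes of abundance. Genes at 20 to under 50 CPM had a median share of 13.0%, those at 50 to under 100 CPM 15.6%, those at 100 to under 500 CPM 18.5%, those at 500 to under 1000 CPM 18.0%, and those at 1000 CPM or more 17.4%. Pooled over their reads, the share was 14.4% in the lowest class and 23.2% in the highest. Across the 5494 genes the Spearman correlation of share and level was 0.196, and the Pearson correlation with log2 level was 0.185. CPM is not corrected for transcript length, and the shares were not adjusted for it either, so any part of length in the differences between genes was not tested. From the lowest to the highest class, 2.81%, 7.77%, 18.7%, 29.2% and 30.8% of genes were called higher, and 31.3%, 34.3%, 30.7%, 37.2% and 37.4% were called lower. Genes whose annotation overlaps another listed gene (1501) had a median share of 15.8%, and the others 14.6%. How reads were assigned between overlapping genes or near-identical copies is not known, so single values of such genes are uncertain.

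The highest share at 100 CPM or more was that of a ribosomal protein gene. AT4G14320, which encodes a protein of the large cytosolic ribosomal subunit, had 64.5%, 63.5% and 46.8% tagged reads in replicates 1, 2 and 3, with 909 of 1542 reads tagged in all. ATG8C, a ubiquitin-like protein of autophagosome formation, had 54.1%, 64.0% and 54.0%. The histone H2A gene HTA2 had 54.4%, 51.0% and 46.0%. All of these values lie far above the library shares of 23.9%, 20.9% and 14.1%. On the log2 scale the excess over the library was 2.55 ± 0.14 (SE) for AT4G14320, 2.48 ± 0.26 for ATG8C and 2.08 ± 0.19 for HTA2 (limma, adjusted p = 0.000648, 0.00268 and 0.00196). The other genes among the 12 highest were AT5G42530, AT5G22580, AT4G34600, the auxin-induced SAUR-family gene AT2G21210 (which overlaps AT2G21200), AT2G22425, AT1G48830 (which overlaps AT1G48820), the cytochrome b5 gene CB5-B (which overlaps AT2G32710), AT2G29290 and AT1G65490, with mean shares of 47.8% to 55.7%. AT5G42530 held the most reads of these, with 2220 of 3846 tagged, and shares of 60.3%, 59.7% and 47.0%. Before capture, in the unenriched libraries with ADPRC, 18 of 293 reads of AT4G14320 and 38 of 891 of AT5G42530 were tagged. For ATG8C and HTA2 these were 0 of 62 and 2 of 123.

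The lowest shares at 100 CPM or more were at or near 0. AT2G43150 had 0 tagged of 1026 reads, which allows a share of up to 0.292%. GUN5, the large subunit of the Mg-chelatase of chlorophyll synthesis, had 0, 0.206% and 0.138% tagged reads, or 2 of 1695 in all. GLU1, the ferredoxin-dependent glutamate synthase, which overlaps AT5G04150, had 0, 0.704% and 0.254%. All 3 genes were thus far below the library share in each library. LOS1, a translation elongation factor of the EF-2 kind, had 0.398%, 0.435% and 0.285%, and its log2 ratio lay at -5.77 ± 0.16 relative to the library (limma, adjusted p = 0.000358). Enriched libraries without ADPRC had 1 tagged of 1326 reads of GUN5, 1 of 683 of GLU1 and 2 of 642 of LOS1. Shares this low are close to those without ADPRC, and the difference was not tested. The plasma membrane proton pump HA2 (2 of 684 reads), the phosphoenolpyruvate carboxylase PPC2 (2 of 540), the aconitase ACO1 (1 of 431) and the embryo-defective gene emb2726 (1 of 385) were in the same range. AT3G23450, the mitochondrial ATMG00030 and the unmatched noncoding entry ENSRNA049451242-T1 had 0 tagged reads of 376, 385 and 386, which allows up to 0.798%, 0.779% and 0.777%. AT5G53140 had 1 tagged of 2973 reads.

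Genes at 20 to under 100 CPM made up 4103 of the included genes (74.7%). Their median share was 13.6%, with quartiles of 6.58% and 21.5%, against 18.4%, with quartiles of 11.8% and 25.2%, at 100 CPM or more. Of these mid-abundance genes, 172 were called above and 1320 below the library share, which is 36.4% of them, against 285 and 442 of 1391 (52.3%) at 100 CPM or more. The median mid-abundance gene had 130 reads in the 3 enriched libraries, 18 of them tagged. In the 3 unenriched libraries with ADPRC it had 52 reads and 0 tagged ones. With 130 reads, a 95% Wilson interval runs from 14% to 27.7% around a share of 20%, from 2.13% to 9.70% around about 5%, and from 32.0% to 48.6% around 40%. Without replicate 1, 2 and 3 in turn, the mid-abundance genes called higher were 102, 24 and 32, and those called lower 1184, 654 and 753.

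Most mid-abundance genes could not be ranked from unenriched RNA. In the 3 unenriched libraries with ADPRC, 3194 of the 4103 (77.8%) had 0 tagged reads, against 334 of the 1391 genes (24.0%) at 100 CPM or more. Among the 1492 mid-abundance genes called in the enriched libraries, 1276 (85.5%) had 0 tagged reads in unenriched RNA. These were 72 of the 172 genes called higher and 1204 of the 1320 called lower, so a count of 0 there came with high and with low shares after enrichment. ATG8C, above 100 CPM, is an example: it had 0 tagged of 62 unenriched reads, which allows up to 4.84%, and 255 tagged of 447 enriched reads.

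Among mid-abundance genes, AT2G07774 had the highest share of all 5494 genes, with 78.2%, 74.3% and 70.4% tagged reads and 106 of 140 reads tagged (95% Wilson interval 68.0% to 82.1%). It had 1 tagged of 12 reads in enriched libraries without ADPRC, and 1 of 44 in unenriched libraries with ADPRC. AT4G01897, which overlaps AT4G01895 and AT4G01900, followed with 80%, 63.6% and 72.4% (76 of 109 reads). Both are protein-coding genes with no symbol in the reference. LSM3B, a subunit of the LSM ring that binds RNA in decay and splicing, had 60.2%, 57.1% and 41.7% and overlaps AT1G76850. NFD6, a gene of nuclear fusion, had 44.0%, 62.9% and 45.8%, but its call rested on 84 reads and was lost without replicate 2 (limma, adjusted p = 0.092) or without replicate 3 (0.0861). The noncoding RNA gene AT1G79075 had 66.7%, 57.6% and 42.3%. The other 7 of the 12 highest were AT5G05370 (which overlaps AT5G05365), AT1G26470, AT2G21180, AT3G59650 (which overlaps AT3G59660), AT3G45050, AT1G24148 and AT5G62575 (listed as SDH7, of succinate dehydrogenase), with mean shares of 49.4% to 56.7%. Without replicate 2 the calls of AT1G79075, AT3G59650, AT3G45050 and AT5G62575 were lost as well (adjusted p = 0.0512, 0.0706, 0.0537 and 0.0673).

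There were 117 mid-abundance genes with 0 tagged reads, all tied at the lowest share, and the 12 named here are those called genes among them with the highest level. PHOT2, a blue-light receptor, had 0 of 264 reads, which allows up to 1.14%, and overlaps AT5G58150. GLT1, the NADH-dependent glutamate synthase, had 0 of 234 reads and overlaps AT5G53470. CESA6, a catalytic subunit of cellulose synthase, had 0 of 182 reads, and the HSP70-family chaperone HSP91 had 0 of 212. Enzymes, receptors and chaperones thus stood beside each other at 0. The protease gene DEG14 had 0 of 213 reads, and AT3G54580, AT5G26360, AT4G22475 (which overlaps AT4G22485) and AT4G28080 (which overlaps AT4G28070) had 0 of 169 to 256. The rRNA gene AT2G01010, the long noncoding RNA gene AT3G06355 (which overlaps AT3G41979) and the plastid gene ATCG01180 had 0 of 164, 263 and 243 reads. In the unenriched libraries these 12 had 0 tagged reads too, of 48 to 906 reads.

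**Figure D2:**
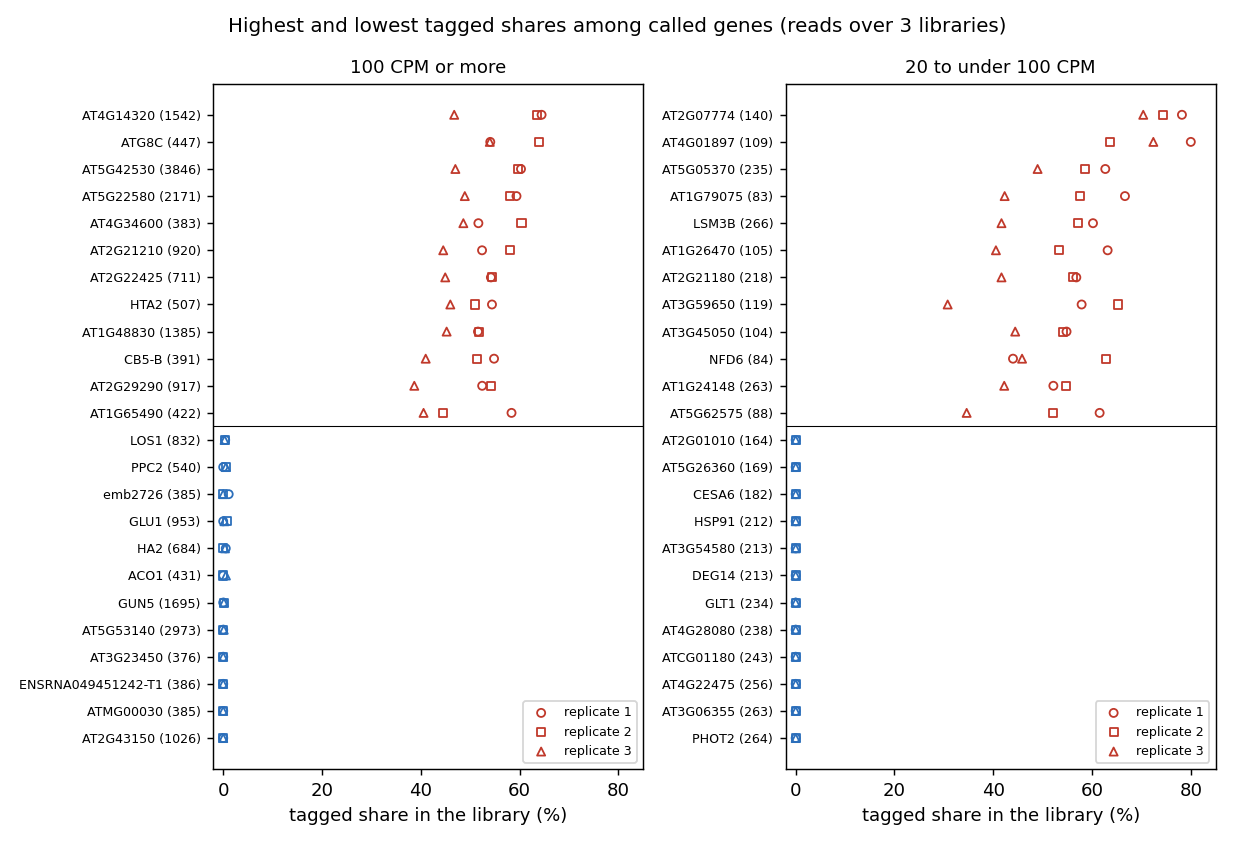
Tagged share in percent in each of the 3 enriched libraries with ADPRC for the 12 highest and 12 lowest called genes (ties by higher level) at 100 CPM or more (left) and at 20 to under 100 CPM (right), with 1 symbol per replicate and the reads over the 3 libraries in parentheses. The upper genes lie between 30.8% and 80% and the lower ones at or below 1.11%. The genes were chosen by these shares, so the gap follows from the choice.

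The calls could be followed into libraries that they had not used. In the unenriched libraries with ADPRC, the summed reads of the 457 higher genes were 1.37%, 1.65% and 1.24% tagged. Those of the 1762 lower genes were 0.207%, 0.264% and 0.204% tagged, and those of uncalled genes 0.590%, 0.760% and 0.549%. The higher genes lay above the lower ones by 1.20 ± 0.178 percentage points (SD, n = 3), or 6.64, 6.27 and 6.08 times, in each of the 3 libraries. An exact permutation test over the paired libraries gave p = 0.25, the smallest that 3 pairs allow. In the 1 library of enriched total RNA with ADPRC, 177 of 1323 reads of the higher genes (13.4%, 95% Wilson interval 11.6% to 15.3%) and 21 of 2693 reads of the lower genes (0.780%, 0.511% to 1.19%) were tagged. Without replicates, this last difference has no test.

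Without ADPRC the groups lay closer together than with it. In the enriched libraries without ADPRC, 0.15%, 0.25% and 0.219% of reads of the higher genes and 0.115%, 0.216% and 0.212% of those of the lower genes were tagged, a ratio of 1.30, 1.16 and 1.03 (exact paired permutation test, two-sided, p = 0.25). This p is the smallest that 3 pairs allow, so it cannot show that the groups were alike. For mid-abundance genes these ratios were 1.08, 2.43 and 1.70. The unenriched library without ADPRC had 2 tagged of 94346 reads for the higher and 3 of 155435 for the lower genes. Mid-abundance genes showed the same order: in unenriched libraries with ADPRC the higher ones had 1.98%, 1.79% and 1.29% and the lower ones 0.0940%, 0.169% and 0.114% (exact paired permutation test, p = 0.25). For the lower mid-abundance genes this was close to the 0.115%, 0.172% and 0.194% that they had in enriched libraries without ADPRC, where the higher ones had 0.124%, 0.418% and 0.331%. The 1 unenriched library without ADPRC is the nearer background for unenriched RNA. It had 0 tagged of 27160 reads of the lower and 0 of 2737 of the higher mid-abundance genes, and the difference was not tested. The summed shares of the mid-abundance groups thus did not overlap in unenriched RNA with ADPRC.

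**Figure D3:**
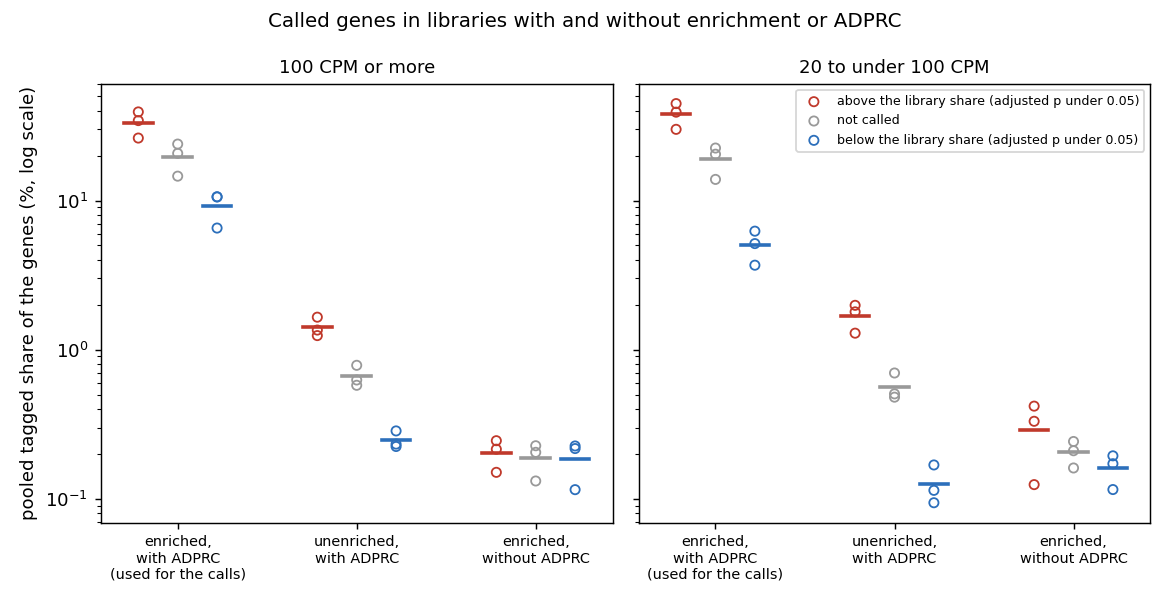
Pooled tagged share in percent (vertical axis, log scale) of genes called above, not called and called below the library share, in 3 kinds of poly(A) library, with 1 circle per library and a bar at the mean of 3. The calls came from the leftmost libraries of each panel. In unenriched libraries with ADPRC the groups keep their order without overlap, and without ADPRC they overlap.

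Functions were compared through 32 lists of genes with at least 3 included members, 371 genes in all. The lists were not drawn at random and differences between them were not tested. Counts of called members stand beside 8.32% of all genes called above and 32.1% below the library share. Lists also differed in level, and at 1000 CPM or more 30.8% of all genes were above and 37.4% below. Each list is described by the median of its members' mean shares, beside the 14.9% of all 5494 genes. In each of the 3 libraries 18 functions had a median above that of all genes and 9 below it, and 5 changed sides. The order of the 32 medians was similar between libraries, with Spearman correlations of 0.882, 0.938 and 0.955, and no function's rank in a single library was more than 8 places from its rank by mean share. Shares pooled over the reads of a function, which rank functions differently from medians, had a Spearman correlation of 0.956 between enriched and unenriched libraries with ADPRC over the 32 functions, whose points share the same genes. With the library total as reference, 11 functions had more members called higher than lower and 21 the reverse, and centred on the median gene these were 20 and 11. For 9 functions the balance turned: the LHC antenna, antioxidant enzymes, aquaporins, glutathione S-transferases, expansins and XTH, jasmonate synthesis, lipid transfer proteins, the proteasome and chloroplast ribosomal proteins.

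**Figure D4:**
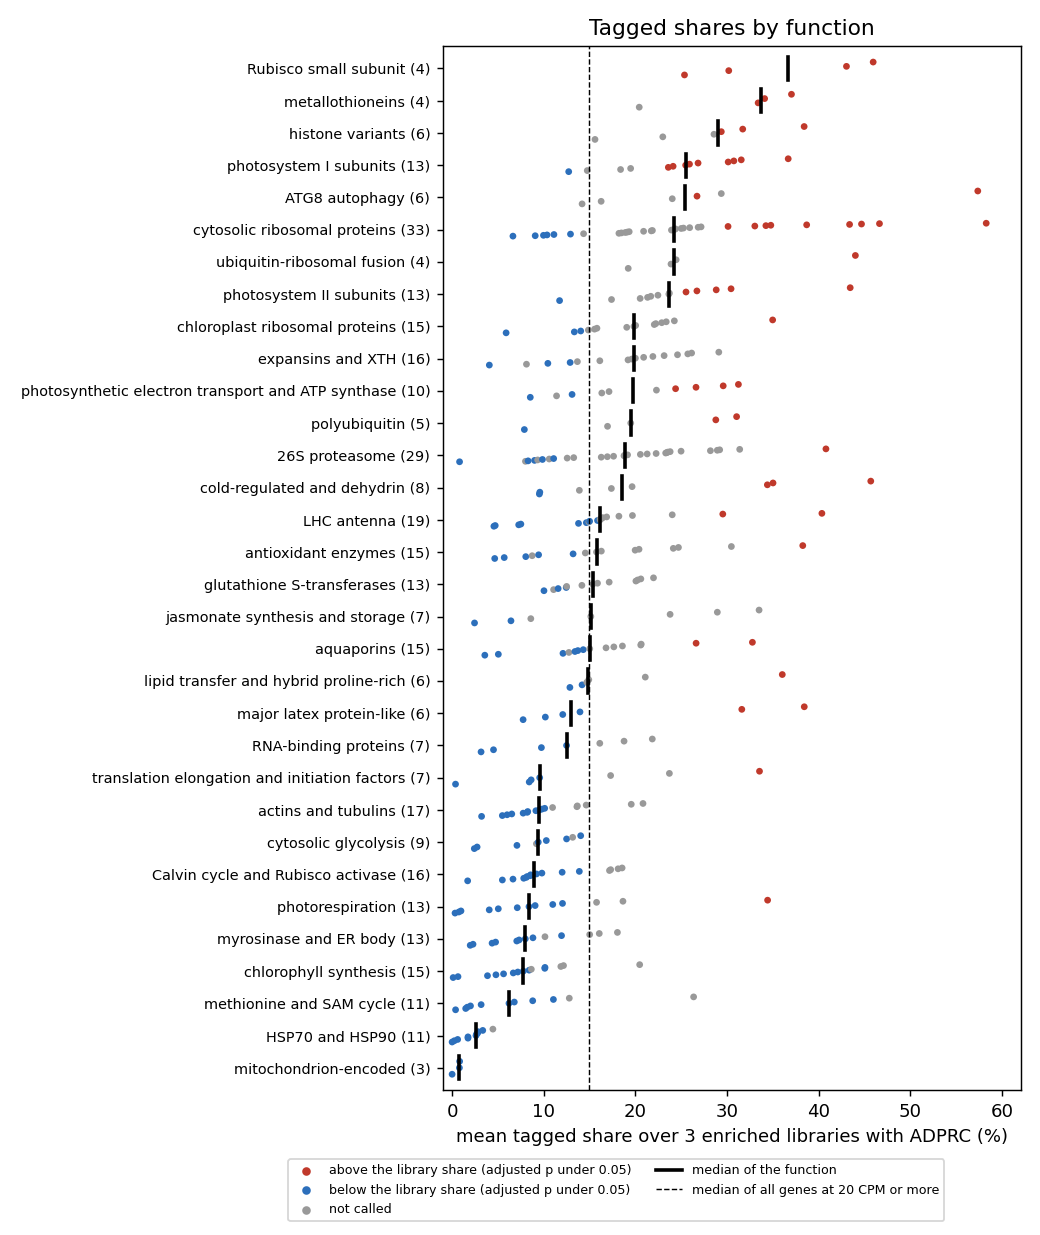
Mean tagged share in percent (horizontal axis) of the members of 32 functions, with 1 point per gene, coloured by its call against the library share, a thick bar at the median of the function and the number of members in parentheses. The dashed line is the median of all 5494 genes, 14.9%. Medians run from 36.6% for the Rubisco small subunit to 0.795% for mitochondrion-encoded genes.

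Genes of the Rubisco small subunit, the nuclear-encoded part of the carbon-fixing enzyme, ranked first, with a median of 36.6%. RBCS3B had 51.9%, 47.4% and 38.5% tagged reads in replicates 1, 2 and 3. RBCS2B had 47.9%, 43.5% and 37.6%. RBCS1B had 37.4%, 31.4% and 21.8%, and RBCS1A had 32.2%, 26.3% and 17.6%. In each library the order was the same, and all 4 genes were called above the library share, with log2 ratios from 0.47 ± 0.08 (SE, limma, adjusted p = 0.0118) for RBCS1A to 1.83 ± 0.08 (adjusted p = 0.00051) for RBCS3B. The call of RBCS1A was lost without replicate 2 (adjusted p = 0.0537). These copies are alike in sequence, so reads may have been exchanged between them.

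Photosystem I subunits ranked high. Of 13 genes, 9 were above and 1 below the library share, and the median was 25.5%. Over all genes 8.32% were above and 32.1% below, and at 1000 CPM or more 30.8% and 37.4%. Centred on the median gene 11 were above and 0 below. Without replicate 2 and without replicate 3, 5 and 4 of the 13 were called higher. PSAD-2, a subunit at the ferredoxin docking site, which overlaps AT1G03140, had 42.3%, 43.5% and 24.2% tagged reads, and its copy PSAD-1 had 22.3%, 19.3% and 13.5%. PSAE-1, which overlaps AT4G28740 and AT4G28755, had 28.9%, 27.8% and 19.7%, and its copy PSAE-2, which overlaps AT2G20270, had 16.0%, 14.5% and 13.7%. In both pairs 1 copy was above the other in every library. PSAF, which binds plastocyanin, was the lowest with 14.9%, 15.3% and 7.94%, and was called below the library (log2 ratio -0.77 ± 0.11, limma, adjusted p = 0.00616), a call that was lost when centred on the median gene (adjusted p = 0.0882).

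Photosystem II subunits had a median of 23.6%, and 5 of 13 were above and 1 below the library share (10 and 1 when centred on the median gene; 3 and 1 without replicate 2 or without replicate 3). PSBW, a small membrane subunit, had 51.7%, 41.7% and 36.9% tagged reads over 31975 reads. PSBX, another small membrane subunit, had 37.1%, 27.0% and 22.3%. PSBQA, of the oxygen-evolving complex, had 32.1%, 33.0% and 26.3%. PSBO1, the manganese-stabilising protein of the same complex, stood apart with 12.9%, 12.8% and 9.47%, and its log2 ratio lay at -0.86 ± 0.12 (limma, adjusted p = 0.00538). Of the 10 genes of electron transport and the ATP synthase, 4 were above and 2 below (1 below without replicate 3). The counts of both lists stand beside 30.8% of all genes above and 37.4% below at 1000 CPM or more. The plastocyanin gene DRT112 had 31.3%, 28.3% and 20.2%, and FD1, a ferredoxin gene that overlaps AT1G10950, had 33.9%, 36.1% and 23.7%. FNR1, the reductase that takes electrons from ferredoxin and overlaps AT5G66180, had 8.32%, 9.06% and 8.21%. Ferredoxin and plastocyanin genes were therefore above the library and both called members below it were FNR1 and the ATP synthase subunit ATPC1.

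The light-harvesting antenna lay lower than the photosystem cores, with a median of 16.2%. Of 19 genes, 2 were above and 8 below the library share, but 5 above and 4 below when centred on the median gene. Over all genes 8.32% were above and 32.1% below the library share, which is near the first pair of counts. The antenna's median level was 5681 CPM, and of all genes at 1000 CPM or more 30.8% were above and 37.4% below. Without replicate 2 or without replicate 3, 5 were below. Lhca5, a minor antenna gene that overlaps AT1G45545, had 44.5%, 44.3% and 32.2%. LHCA2 had 32.9%, 31.2% and 24.5%. CAB3, which encodes the major antenna protein LHCB1, was lowest with 4.79%, 4.96% and 3.92% (1029 of 22568 reads). Its copies CAB2 and CAB1, the latter of which overlaps AT1G29940, had 4.89%, 5.43% and 3.79%, and 8.81%, 7.76% and 5.93%. Another LHCB1 gene, LHB1B1, had 17.0%, 18.8% and 13.4% and was not called (limma, adjusted p = 0.126). The LHCB1 genes are near-identical, so their single values are uncertain. CAB3 stayed below the library share with a log2 ratio of -2.33 ± 0.14 (limma, adjusted p = 0.00067).

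Enzymes of carbon metabolism in the chloroplast were below the library share in most cases. Of 16 Calvin cycle genes including Rubisco activase, 12 were below and 0 above, with a median of 8.88%, and 9 were below when centred on the median gene. Over all genes 32.1% were below, and 37.2% at 500 to under 1000 CPM. RCA, the activase, which overlaps AT2G39725, had 9.58%, 10.4% and 5.68% tagged reads. PRK, phosphoribulokinase, which overlaps AT1G32070, had 7.84%, 10.8% and 5.60%. The transketolase gene AT3G60750 was lowest with 1.05%, 2.78% and 1.26%. The highest of the 16, the ribose-5-phosphate isomerase gene EMB3119, had 21.3%, 19.3% and 15.1%, below RBCS1A in each library, and was not called. In photorespiration 10 of 13 genes were below and 1 above, with a median of 8.39%. GDCH, the H protein of glycine decarboxylase, had 40.4%, 35.5% and 27.4%. GLDP1 and GLDP2, the P proteins of the same complex, had 0.651%, 1.11% and 1.14%, and 0.339%, 0.990% and 0.862%. Subunits of 1 enzyme thus lay on opposite sides of the library share, without overlap, with log2 ratios of 1.12 ± 0.14 for GDCH and -4.62 ± 0.32 for GLDP1 (limma, adjusted p = 0.00402 and 0.000965). GLDP1 overlaps AT4G33000.

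Chlorophyll synthesis had a median of 7.77%, with 11 of 15 genes below and 0 above the library share (7 below without replicate 2 or without replicate 3, and 7 below and 1 above when centred on the median gene). Over all genes 32.1% were below, and 30.7% at 100 to under 500 CPM. The Mg-chelatase has 3 kinds of subunit. CHLI1, which overlaps AT4G18465, had 21.5%, 22.9% and 16.9% tagged reads and was not called, but was above when centred on the median gene (limma, adjusted p = 0.0281). ALB1, which overlaps AT1G08530, had 0, 1.92% and 0, or 1 of 175 reads, and GUN5 had 2 of 1695. HEMA1, the glutamyl-tRNA reductase at the entry of the pathway, had 3.49%, 4.27% and 3.82%. CRD1, of the cyclase step, which overlaps AT3G08795 and AT3G56950, had 5.46%, 7.96% and 3.43%.

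Cytosolic ribosomal protein genes ran from 6.64% to 58.3% around a median of 24.2%. Of 33 genes, 9 were above and 6 below, and centred on the median gene 19 were above and 4 below. Over all genes 8.32% were above and 32.1% below the library share, and at 100 to under 500 CPM 18.7% and 30.7%. Without replicate 2, 6 were above, and without replicate 3, 3 were below. RPL24A, which overlaps AT2G36610, had 50.8%, 45.1% and 43.9%. SAG24 had 48.8%, 45.2% and 36.1%. RPS10B was lowest with 11.0%, 3.31% and 5.64%, below the library by a log2 ratio of -1.91 ± 0.34 (limma, adjusted p = 0.0116). The copies RPS5B and RPS5A had 52.8%, 36.5% and 26.7%, and 28.7%, 22.9% and 20.9%, of which RPS5B alone was called. UBQ1, whose product is ubiquitin joined to a ribosomal protein, had 54.5%, 46.7% and 30.8%, while UBQ5, of the same kind, had 24.9%, 18.6% and 14.2% and was not called. Among polyubiquitin genes UBQ11 had 35.7%, 37.2% and 20.2%, UBQ10 had 19.6%, 23.5% and 15.4%, and UBQ4 had 8.82%, 8.00% and 6.82%. Of the 5 polyubiquitin genes 2 were above and 1 below, and without replicate 2 or without replicate 3, 1 was above and 0 were below. The call of UBQ4 was lost without any 1 of the 3 replicates (limma, adjusted p = 0.0607 to 0.0979), with DESeq2 (0.0957) and when centred on the median gene (0.0699). Chloroplast ribosomal proteins had a median of 19.8%, and 1 of 15 genes, PSRP6, was above the library share, with 39.4%, 38.1% and 27.3%, while 3 were below (1 without replicate 2 or without replicate 3). Centred on the median gene, 8 were above and 1 below. The lowest of the 15, EMB3126, which overlaps AT3G63500, had 5.18%, 7.94% and 4.56% and was called below the library share.

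Metallothioneins, which bind metals, had a median of 33.7%, with 3 of 4 genes above the library share (2 without replicate 3, and 4 when centred on the median gene). The list's median level was 1655 CPM, and of all genes at 1000 CPM or more 30.8% were above. MT2A had 46.5%, 38.1% and 26.5%, and MT2B had 41.2%, 35.3% and 25.7%. MT3, which overlaps AT3G03105 and AT3G15352, had 20.6%, 25.4% and 15.2% and was not called (limma, adjusted p = 0.71), but was above when centred on the median gene (0.0193). Histone variants had a median of 29.0%, with 3 of 6 genes above and 0 below (1 above without replicate 2, and 5 when centred on the median gene). Their median level was 255 CPM, and of all genes at 100 to under 500 CPM 18.7% were above. The H2A.Z gene HTA11 had 47.8%, 41.0% and 26.4%, and the H2A.Z gene HTA9, which overlaps AT1G52750, had 23.4%, 14.6% and 8.75%. HTA9 was not called, but was below with edgeR (adjusted p = 0.046) and without replicate 1 (limma, 0.0269). The call of HTA11 was lost without any 1 of the 3 replicates (0.0555 to 0.0884). In the ATG8 family the median was 25.4%, and 2 of 6 genes, ATG8C and ATG8F, were above the library share (1 of 6 without any 1 replicate). The family's median level was 82.1 CPM, and of all genes at 50 to under 100 CPM 7.77% were above. ATG8F had 34.3%, 25.8% and 20.1%, and the lowest member, ATG8H, had 15.0%, 17.9% and 9.68% over 79 reads. Among cold-regulated genes the small membrane proteins RCI2B, with 53.3%, 49.1% and 34.6%, and RCI2A, which overlaps AT3G01795 and AT3G05870, with 42.6%, 33.8% and 26.7%, were above the library share, as was KIN2. The dehydrin genes ERD10 and ERD14 were below it, with means of 9.52% ± 3.72 and 9.57% ± 3.70 (SD, n = 3), and the call of ERD10 was lost without replicate 2 (adjusted p = 0.0719), without replicate 3 (0.0612) or when centred on the median gene (0.0599).

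The lowest functions were chaperones and organelle transcripts. Of 11 HSP70 and HSP90 genes, 10 were below the library share and 0 above, with a median of 2.61% and a highest mean of 4.45%, and 10 were also below when centred on the median gene. Over all genes 32.1% were below the library share, and 34.3% at 50 to under 100 CPM. HSC70-1, the main cytosolic HSP70, had 3.25%, 3.04% and 1.68% (55 of 2105 reads). CR88, the chloroplast HSP90, had 0 of 150 reads, which allows up to 2.00%. The endoplasmic chaperone BIP1 had 5.26%, 0 and 8.08% and was not called (limma, adjusted p = 0.0523), although edgeR with and without TMM factors, DESeq2, a pseudocount worth 5 reads, the limit of 50 CPM, no centring and the fit without replicate 1 called it below (adjusted p = 8.45e-06 to 0.0397). The 3 mitochondrion-encoded genes had mean shares of 0 to 0.822% and were all below. Pooled over their reads the mean was 0.555%, close to 0.528% in enriched libraries without ADPRC. The 2 plastid-encoded genes, too few for a median, were ATCG00950 with a mean of 0.687% and ATCG01180 with 0. ATMG00030, ATMG01390 and ATCG01180 matched no gene of the reference, so messenger and ribosomal RNA could not be told apart there.

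Methionine and S-adenosylmethionine enzymes had a median of 6.20%, with 9 of 11 genes below the library share, where 32.1% of all genes were below. ATMS1, a methionine synthase, had 0.478%, 0.227% and 0.430% (6 of 1555 reads). HOG1, an S-adenosylhomocysteine hydrolase, had 1.02%, 2.86% and 1.08%. The S-adenosylmethionine synthetases SAM1 and SAM-2 had 9.27%, 6.23% and 3.12%, and 3.94%, 2.07% and 0. ADK2, an adenosine kinase, was the highest member with 18.5%, 31.5% and 29.0% and was not called (limma, adjusted p = 0.341), but was above with TMM factors in edgeR (0.0165). Myrosinases and proteins of the endoplasmic body had a median of 7.98%, with 9 of 13 genes below and 0 above. TGG1, a myrosinase, had 2.91%, 6.46% and 3.71%, PYK10, a beta-glucosidase that overlaps AT3G09250, had 7.34%, 9.14% and 5.45%, and NAI2 had 1.86%, 2.21% and 1.85%. The highest member of the list, AT1G54010, had 14.1%, 21.9% and 18.1% and was not called.

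Of 9 genes of cytosolic glycolysis 7 were below the library share and 0 above, with a median of 9.40%, and 4 were below when centred on the median gene. Over all genes 32.1% were below the library share. GAPC2 had 17.4%, 15.3% and 9.46%, and its call was lost when centred on the median gene (limma, adjusted p = 0.511) or with TMM factors (0.128), without replicate 2 (0.0502) and without replicate 3 (0.0538). LOS2, an enolase, had 2.44%, 3.85% and 1.89%, and iPGAM2, a phosphoglycerate mutase, had 1.54%, 4.41% and 1.32%. Of 17 actin and tubulin genes 11 were below and 0 above, with a median of 9.52% (7 below without replicate 3). ACT7 had 24.4%, 22.6% and 15.5% and was not called, but was above when centred on the median gene (limma, adjusted p = 0.0178). ACT2 had 11.9%, 12.2% and 4.42%, and the tubulin gene TUB6, which overlaps AT5G12240, had 0.858%, 5.29% and 3.50%. Among 7 translation factors the eIF5A gene ELF5A-3, which overlaps AT1G69400, had 39.8%, 37.8% and 23.0% and was above the library share, a call lost without replicate 2 (adjusted p = 0.0738). EIF4A1, an RNA helicase of translation initiation, had 8.58%, 9.66% and 7.00% and was below it, as were 3 others including LOS1.

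Of 29 genes of the 26S proteasome 1 was above and 5 were below, with a median of 18.8%, where 8.32% and 32.1% of all genes were called in these directions. PAF2, a subunit of the core particle that overlaps AT1G47260, had 38.5%, 54.8% and 29.0% over 88 reads, a call lost without any 1 of the 3 replicates (limma, adjusted p = 0.0534 to 0.169) and with a pseudocount worth 0.5 read (0.057). RPN1A, a subunit of the regulatory particle, had 0, 0 and 2.44%, or 1 of 128 reads, and its call was lost without replicate 2 (adjusted p = 0.0539). The count of proteasome genes below the library share was 1, 2 and 3 without replicates 1, 2 and 3, and 8 were above and 1 below when centred on the median gene. Of 15 antioxidant genes 1 was above and 5 below, but 5 above and 2 below when centred on the median gene. The first pair of counts is near the shares of all genes called above and below, 8.32% and 32.1%. The list's median level was 183 CPM, and of all genes at 100 to under 500 CPM 18.7% were above and 30.7% below. Without replicate 2 or without replicate 3, 0 were above and 3 below. The superoxide dismutase gene CSD1, which overlaps AT1G08840, had 44.9%, 40.4% and 29.4%, a call lost without replicate 2 (adjusted p = 0.0647), without replicate 3 (0.0532) or with no replicate block (0.139). The catalase gene AT4G35090, which overlaps AT4G35080, had 4.44%, 8.52% and 4.10%, and CAT3 had 7.60%, 11.8% and 4.68%. CAT1, with 0, 6.25% and 7.69% over 77 reads, was called below, but lost the call without any 1 of the 3 replicates (adjusted p = 0.0549 to 0.125) and under 5 other settings (0.0626 to 0.217).

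Of 15 aquaporins 2 were above and 6 below, but 3 above and 2 below when centred on the median gene. The first pair of counts is near the 8.32% and 32.1% of all genes. The list's median level was 685 CPM, and of all genes at 500 to under 1000 CPM 29.2% were above and 37.2% below. Without replicate 2, 1 was above and 4 below, and without replicate 3, 1 and 3. The tonoplast water channel TIP2;3 had 44.3%, 30.0% and 24.0%, a call lost without any 1 of the 3 replicates (limma, adjusted p = 0.0734 to 0.0926), and the plasma membrane channel PIP2E had 3.61%, 4.75% and 2.34%. Of 6 major latex protein-like genes MLP328 had 46.4%, 35.0% and 33.8% and MLP28 had 10.1%, 7.26% and 5.83%, and all 6 were called, 2 above and 4 below (1 and 2 without replicate 2 or without replicate 3, and 2 and 2 when centred on the median gene). Among lipid transfer proteins LTP6 had 48.6%, 35.1% and 24.4% and ELP had 14.5%, 15.6% and 8.37%. LTP6 lost its call without replicate 2 (adjusted p = 0.0601), and ELP without replicate 3 and when centred on the median gene (0.126). Among jasmonate genes AOC4, an allene oxide cyclase, had 30.2%, 40.9% and 29.3% and was not called (adjusted p = 0.0551), but was above under 5 alternatives (0.000206 to 0.037), while LOX2, a lipoxygenase, had 3.57%, 2.13% and 1.64% and was below the library share. Of 7 RNA-binding protein genes 4 were below (2 without any 1 replicate or when centred on the median gene), from GRP7 with a mean of 12.5% ± 1.74 to CP29, a chloroplast RNA-binding protein, with 2.80%, 4.91% and 1.76%. The highest of the 7, AT4G39260, had 28.1%, 21.4% and 16.1% and was not called. It was above when centred on the median gene (limma, adjusted p = 0.0191). Of 13 glutathione S-transferases and of 16 expansins and XTH genes 3 each were below the library share and 0 above, a smaller part than the 32.1% of all genes, and the medians of 15.3% and 19.8% were above the 14.9% of all genes. Centred on the median gene, 3 and 4 were above and 1 and 2 below, and without replicate 3, 1 and 2 were below. The extremes were 22% ± 6.43 for GSTU19 and 10.0% ± 2.83 for GSTF9, and 29.1% ± 9.94 for XTH9 and 4.06% ± 1.35 for EXPA4 (SD, n = 3).

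In 3 genes untagged reads were abundant after capture. Their level in enriched libraries without ADPRC was over 10 times that in unenriched libraries with ADPRC, a limit chosen after their values were seen. AT2G24060, which overlaps AT2G24070, had 625, 837 and 680 CPM in enriched libraries with ADPRC, 1387, 2757 and 2250 CPM in enriched libraries without it, and 18.5, 27.5 and 34.0 CPM in unenriched libraries. AT5G53140 had 897, 818 and 746 CPM, then 2023, 2698 and 2773 CPM, and 66.1, 48.5 and 55.4 CPM in the same order. Both were thus more abundant after capture whether or not ADPRC had been added, and most so without it. Their tagged reads were 17 of 2596 and 1 of 2973. MIND, with 132, 85.2 and 62.4 CPM and then 269, 267 and 278 CPM against 18.5, 22.6 and 25 CPM, had 6 tagged of 336 reads. Across all genes, the median log2 ratio of the level in enriched libraries without ADPRC to that in unenriched libraries was 0.15 for genes called higher, 0.02 for genes called lower and 0.11 for uncalled genes. The part of untagged capture in the shares was not tested.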

How the data were processed

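Direct RNA reads of 12 libraries were deposited by the authors as 2 tables of values per gene and library, for tagged reads (NAD-RNA) and for all reads (all-RNA). Per the file headers the values are TPM, but they behave as CPM of all reads of the library: every value above 0 (38774 tagged, 177709 all) was a whole multiple of 1 read within 0.01 reads (100%), so whole reads were recovered. The sources used here name no aligner, base caller, genome build or strand setting, and do not say how tagged reads were recognised. There were 0 unused value columns, and 1 ID naming no gene (1 read) was left out.

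Untagged values were all-RNA less NAD-RNA of the same column. Main calls came from limma 3.58.1 in R 4.3.3 (lmFit, eBayes with trend on abundance, two-sided, Benjamini-Hochberg, called under 0.05) on the log2 ratio of tagged to untagged value within a library, less that of the totals, with a pseudocount worth 1 read split by the library's tagged share. Genes with 0 tagged reads have fitted ratios that depend on it, so their shares are given with the limit that 3 reads allow. Alternatives were pseudocounts of 0.5 and 5 reads, a limit of 50 CPM, all genes with a read in each library, centring on the median gene or not at all, no replicate block, edgeR 4.0.16 (quasi-likelihood, also with TMM) and DESeq2 1.42.0 on whole reads, and each replicate left out. The script was tested on simulated data. Intervals are 95% Wilson intervals. Intervals and limits cover counting error only.

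Tagged and untagged columns are paired because they come from 1 library; deviations from the group means correlated by 0.386, 0.175 and 0.265 within replicates 1, 2 and 3. No 2 replicates matched within sampling noise (chi-square per gene 2.43 to 4.76). The members, the 34 lists and the tests were chosen with earlier results of these data known. Symbols, biotypes and overlaps come from RefSeq's TAIR10.1 table, which matched 5487 of 5494 genes. Listed IDs counted as members only where it names them: 53 of 458 had no name, so the list of ribosomal stalk proteins has no member. Named are, at 100 CPM or more and at 20 to under 100 CPM, the 12 highest and 12 lowest mean shares among called genes, and the highest and lowest member of each list. Other genes named are further list members chosen after their values were seen. Gene length and start base were planned beside the shares but not used, so how shares vary with them was not tested. The build behind the files is not known, and the overlaps given here rest on positions in TAIR10.1. No gene or transcript sequences are shown.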

Additional observations from a re-analysis of the deposited data

Results flagged for a closer look

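The library of enriched total RNA with ADPRC, which entered no test, had 311 tagged of 6479 reads, 4.80% (95% Wilson interval 4.31% to 5.35%), above the 2 of 1237 reads, 0.162% (0.0444% to 0.588%), of the total RNA library without ADPRC; each is 1 library, and the difference was not tested.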

How the results depend on the processing

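The reference of the ratio moved the counts most. Genes above the library share were 457, and 1054 when centred on the median gene, 2 with no centring, 766 with edgeR, 1287 with edgeR and TMM factors, and 159 to 348 with 1 replicate left out. Genes below it were 1762, and 883 at 50 CPM or more, where 2536 genes were tested, 5197 with no centring, and 928 to 1600 with 1 replicate left out. Mid-abundance genes above were 172, and 100 at 50 CPM or more, 495 when centred on the median gene, 2 with no centring, 395 with edgeR, 711 with TMM factors, and 24 to 102 with 1 replicate left out. Those below were 1320, and 419 at 50 CPM or more, 3879 with no centring, and 654 to 1184 with 1 replicate left out. Without pairing tagged and untagged columns (no replicate block), 423 genes were above and 1629 below, of which 382 and 1564 were among the paired calls. By pooled reads, 12 functions lay above all genes, and 19 by median. The ratio of pooled shares with and without ADPRC ran from 92.2 to 121 with 1 library left out; by median share it has no value, since the median gene had 0 tagged reads without ADPRC. The causes of these shifts were not tested, and some of the settings also fit fewer genes or samples.

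With no centring, which compares tagged with untagged reads 1 to 1, these log2 ratios above 0 turned negative: AT1G48830 -0.0323, CB5-B -0.0668, AT2G29290 -0.10, AT1G65490 -0.14, NFD6 -0.00692, AT1G24148 -0.0364, AT5G62575 -0.10, RBCS3B -0.24, RBCS1A -1.60, MT2A -0.79, MT3 -1.99, HTA11 -0.73, PSAD-2 -0.82, UBQ1 -0.37, PSBW -0.39, PSRP6 -0.91, XTH9 -1.34, FD1 -1.16, UBQ11 -1.20, PAF2 -0.60, RCI2B -0.27, Lhca5 -0.58, CSD1 -0.73, GSTU19 -1.87, AOC4 -1.02, TIP2;3 -1.08, LTP6 -0.88, MLP328 -0.69, AT4G39260 -1.87, ELF5A-3 -1.03, ACT7 -1.95, GDCH -0.95, CHLI1 -1.97 and ADK2 -1.52. The median mid-abundance gene had 18 tagged reads, which leaves wide intervals.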
